A study of Mus musculus with 12 samples.

Results

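Nodal is a secreted ligand of the TGF-beta family. It binds the receptors Acvr1b and Acvr2b together with the co-receptor Tdgf1 (Cripto), and the activated receptors phosphorylate Smad2 and Smad3, which enter the nucleus with Smad4 and act on target genes with the DNA-binding partner Foxh1. The secreted proteins Lefty1 and Lefty2 are targets of the pathway and block the ligand and its co-receptor, and Smad7 blocks the receptors from inside the cell. In mouse embryonic stem cells and in the early epiblast the pathway is active, and in the embryo it specifies mesendoderm and left-right asymmetry.

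The 8 genes described are Nodal, Lefty1, Lefty2, Tdgf1, Acvr1b, Acvr2b, Foxh1 and Smad7. They were chosen by name, matched by symbol in the authors' deposited table to 1 Ensembl gene each, and followed through the estimated counts of 52661 genes in 12 RNA-seq libraries. All 8 were among the 21053 genes that passed the filter on low counts. The libraries came from CGR8, an embryonic stem cell line of the mouse, cultured in serum with leukemia inhibitory factor (LIF), which maintains pluripotency. All cells had been stably transfected with a ppy-cagg-ires-puro vector. The vector was empty (control, n = 3) or carried netrin-1, a secreted guidance protein, as the wild type (netrin-1 WT, n = 3), as a point mutant whose name refers to the receptor Unc5b (unc5B MUT, n = 3) or as one whose name refers to the receptor neogenin (neo1 MUT, n = 3). The labels do not say whether a group is 1 clone or a pool of clones, nor whether its 3 libraries are of separate cultures, so the spread that p-values measure may be technical. The design asks how the transcriptome of these stem cells differs with netrin-1 and with its receptor mutants, and here that question is put to the Nodal pathway.

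The libraries held 22256195 to 59735737 estimated counts. Levels are in CPM, a gene's count scaled to a common library size with the TMM correction for library composition, and ± is the SD over 3 libraries for a level and the SE for a log2 fold change. The Ntn1 transcript was at 0.782 to 15.4 CPM in the control libraries. It was at 76.9 to 288 CPM in netrin-1 WT, 34.9 to 322 CPM in unc5B MUT and 56.4 to 219 CPM in neo1 MUT, so its level varied widely within each group. Embryonic stem cell markers were high in every library, with 8 markers summing to 3460 to 4288 CPM. The 7 fibroblast markers summed to 4.38 to 18.04 CPM. The 4 libraries numbered 3 stood apart from the other 8: with all groups together, 62.8% of the tested genes differed between number 3 and numbers 1 and 2 at an adjusted p of 0.05. Same-numbered libraries of different groups deviated together (r of 0.58 to 0.88), but so did libraries numbered 1 and 2 (0.492 to 0.758). These correlations reflect that number 3 stood apart and do not show that numbers 1 and 2 pair libraries. For that reason 2 edgeR quasi-likelihood fits are given. The unpaired fit has the group as its only term, and the paired fit also has the replicate number. Fold changes with SE and adjusted p-values (Benjamini-Hochberg over all tested genes) come from the paired fit where no other is named, and genes that rose or fell are those that passed 0.05 there. In bulk RNA, fewer cells of a type and less RNA per cell cannot be told apart.

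The promoter windows of the ligand and the co-receptor are printed because Foxh1 and the Smads act on DNA. Windows were found in the RefSeq table (GRCm38.p6) for 4 of the 8 genes, Nodal, Tdgf1, Acvr1b and Acvr2b, and not for Lefty1, Lefty2, Foxh1 and Smad7. Each runs for 250 bases up to the start that RefSeq gives, on the gene's strand; for Acvr1b and Acvr2b that start lies a little downstream of the gene start printed here from GENCODE. The Nodal window is chr10:61417722-61417971 (plus strand) and the Tdgf1 window is chr9:110946159-110946408 (minus strand). Capitals mark a single Smad box, CAGAC on either strand; the Nodal window holds none.
Nodal: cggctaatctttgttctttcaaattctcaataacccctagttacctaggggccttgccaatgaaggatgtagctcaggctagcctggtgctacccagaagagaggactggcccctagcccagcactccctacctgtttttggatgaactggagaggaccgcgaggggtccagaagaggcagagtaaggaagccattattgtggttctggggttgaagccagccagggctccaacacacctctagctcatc
Tdgf1: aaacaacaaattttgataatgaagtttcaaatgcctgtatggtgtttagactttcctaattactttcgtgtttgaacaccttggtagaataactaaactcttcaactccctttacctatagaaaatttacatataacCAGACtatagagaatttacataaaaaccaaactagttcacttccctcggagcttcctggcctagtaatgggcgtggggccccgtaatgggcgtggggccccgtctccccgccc
The Foxh1 motif, searched as AATNCACA on both strands, was in 0 of the 4 windows and in 3.18% of all 32851 windows of the same length. The paired Smad box GTCTAGAC, which does not contain CAGAC but can share an end base with it, was in 0 of the 4 windows and in 0.167% of all windows. The single Smad box was in the Tdgf1 window, 113 bases before that start, and in the Acvr2b window, and in 42.2% of all windows. A match is a run of letters, not a measured site, and these RNA data do not measure binding.

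Set per kilobase of exon, so that genes can be compared, Tdgf1 had the highest level of the 8, at 162 CPM per kilobase over all libraries. Foxh1 followed at 42.3, then Nodal at 23.2, Lefty1 at 16.8, Lefty2 at 15.3, Smad7 at 12.7, Acvr1b at 11.2 and Acvr2b at 8.64 CPM per kilobase. Within control the SDs of Nodal (24.0 ± 10.9 CPM per kilobase), Lefty1 (23.6 ± 14.4) and Lefty2 (19.4 ± 14.6) overlapped, so these 3 neighbours in the order do not differ beyond their spread, nor do Smad7 (11.3 ± 1.35) and Acvr1b (11.1 ± 1.495). The co-receptor and Foxh1 stood above the rest in control, at 197 ± 30.3 and 52.1 ± 8.29 CPM per kilobase.

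**Figure D1:**
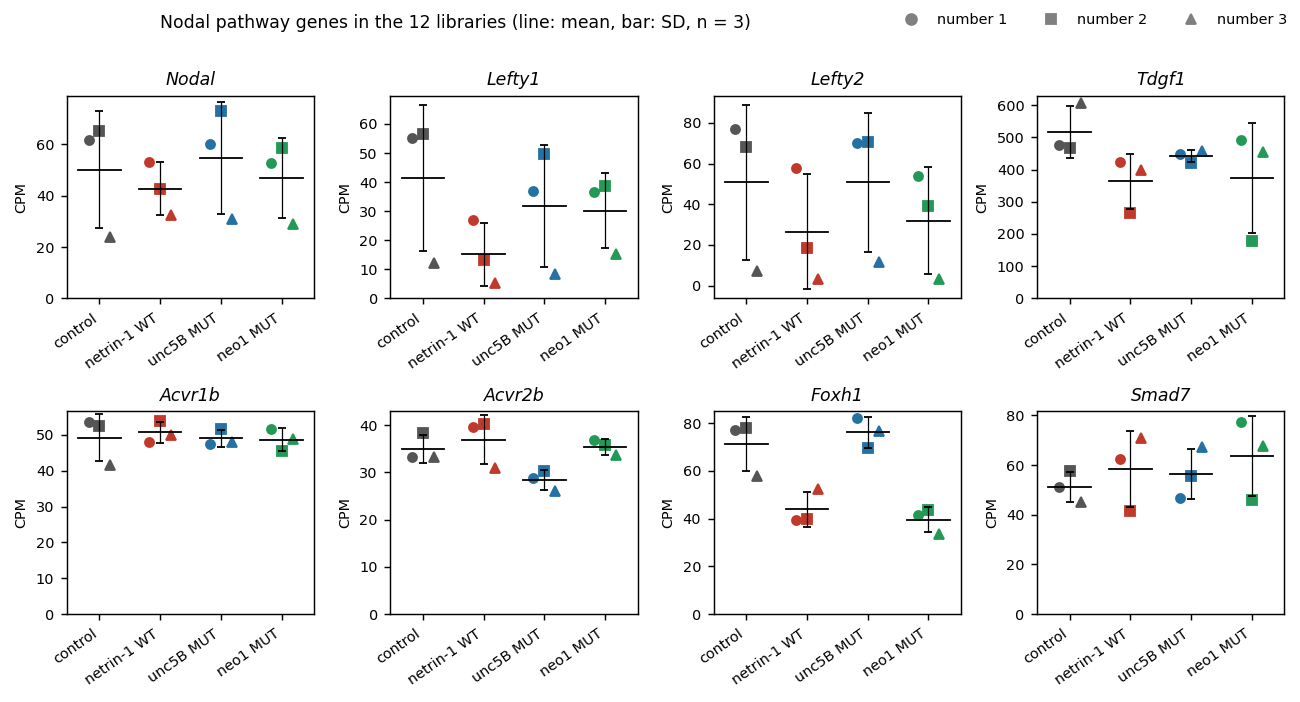
CPM (y axis, linear, from 0 or just below it where an SD bar reaches there) of each of the 8 genes in the 12 libraries by group (x axis); the symbol gives the replicate number, the line the mean and the bar the SD of 3 libraries. Lefty1, Lefty2, Nodal and Acvr2b are lowest in the number 3 library of every group, and Foxh1 is lower in netrin-1 WT and neo1 MUT than in control and unc5B MUT.

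Netrin-1 WT against control sets cells with wild-type netrin-1 against cells with the empty vector. Of the 8 genes 1 was called, Lefty1, which fell; 3.5% of all tested genes were called in this comparison. The unpaired fit of edgeR called 0 of 8 (1 at an unadjusted p under 0.05, Foxh1; DESeq2 without the block called 0) and 0.0997% of all genes. Over the 8 genes the median log2 fold change was -0.34, beside 0.0066 over all genes, and 5 of 8 were below 0. The groups did not overlap for 2 of 8 genes, Tdgf1 and Foxh1, against 9.23% of all genes.

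Lefty1 (ENSMUSG00000038793, chromosome 1, 180935022 to 180938400, plus strand, GRCm38) encodes a secreted inhibitor of Nodal that the pathway itself switches on. It was at 55.3, 56.7 and 12.3 CPM in control libraries 1, 2 and 3 and at 26.8, 13.3 and 5.23 CPM in the netrin-1 WT libraries. The netrin-1 WT library was below the control library of the same number in all 3 numbers, by 1.04, 2.09 and 1.22 on the log2 scale, although the groups overlap when the numbers are ignored. The log2 fold change was -1.42 ± 0.28 (SE; edgeR adjusted p = 0.0218), a level 2.68-fold lower. In numbers 1 and 2 alone it was -1.499 ± 0.28 (edgeR adjusted p = 0.0114). Without pairing the log2 fold change was -1.45 and did not pass (edgeR adjusted p = 1). Leaving out control library 1, control library 2 or netrin-1 WT library 2 ended the paired call (edgeR adjusted p = 0.0939, 0.1 and 0.101).

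Lefty2 (ENSMUSG00000066652, chromosome 1, 180893108 to 180899103, plus strand), the neighbouring gene and a second inhibitor of the ligand, was at 76.9, 68.3 and 6.98 CPM in control and at 57.9, 18.5 and 3.05 CPM in netrin-1 WT. Every netrin-1 WT library was below the control library of its number, but the log2 fold change of -1.09 ± 0.32 did not pass (edgeR adjusted p = 0.0951). The 2 transcripts share 306 of the 1707 stretches of 50 bases in Lefty1 (17.9%) and 12% of those in Lefty2, so some reads could have been divided between these genes, and how shared reads were counted is not stated in the labels. The 16 other genes over 10 CPM within 1 Mb of Lefty1, Lefty2 among them, had a median log2 fold change of -0.034 and 0 were called in the paired fit.

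Foxh1 (ENSMUSG00000033837, chromosome 15, 76668225 to 76669948, minus strand), the forkhead protein that brings Smad2 and Smad3 to DNA, was at 77.3, 77.9 and 58.0 CPM in control and at 39.6, 39.7 and 52.5 CPM in netrin-1 WT. All 3 netrin-1 WT libraries lay below all 3 control libraries, with number 3 the closest pair. The log2 fold change of -0.69 ± 0.17 did not pass (edgeR adjusted p = 0.0511; 0.363 without pairing). It passed without control library 3 or netrin-1 WT library 3 (edgeR adjusted p = 0.0260 and 0.00537), and in numbers 1 and 2 alone it was -0.97 ± 0.11 (edgeR adjusted p = 0.00184). In the authors' deposited table, made with a model the file does not name, Foxh1 has a log2 fold change of -0.75 (adjusted p = 0.0140) and Lefty1 one of -1.51 (adjusted p = 0.00945).

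Tdgf1 (ENSMUSG00000032494, chromosome 9, 110939603 to 110946158, minus strand), the membrane-anchored co-receptor, was at 475, 467 and 608 CPM in control and at 423, 267 and 399.7 CPM in netrin-1 WT. The groups do not overlap, yet the log2 fold change of -0.54 ± 0.23 did not pass (edgeR adjusted p = 0.24). The processed pseudogene Tdgf1-ps1 shares 8.86% of the 50-base stretches of Tdgf1. The ligand Nodal (ENSMUSG00000037171, chromosome 10, 61417972 to 61425338, plus strand) was at 61.6, 65.2 and 24.0 CPM in control and at 53.1, 42.5 and 32.5 CPM in netrin-1 WT. Its log2 fold change was -0.13 with a 95% interval of -0.52 to 0.26. Smad7, the intracellular inhibitor, was at 51.1, 57.5 and 45.3 CPM in control and at 62.5, 41.4 and 71.0 CPM in netrin-1 WT, higher in numbers 1 and 3 and lower in number 2. The type I receptor Acvr1b, the type II receptor Acvr2b and Smad7 had log2 fold changes of 0.044 (interval -0.22 to 0.31), 0.078 (-0.18 to 0.33) and 0.14 (-0.33 to 0.62). A change of 2-fold, 1 on the log2 scale, lies outside each of these 4 intervals.

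**Figure D2:**
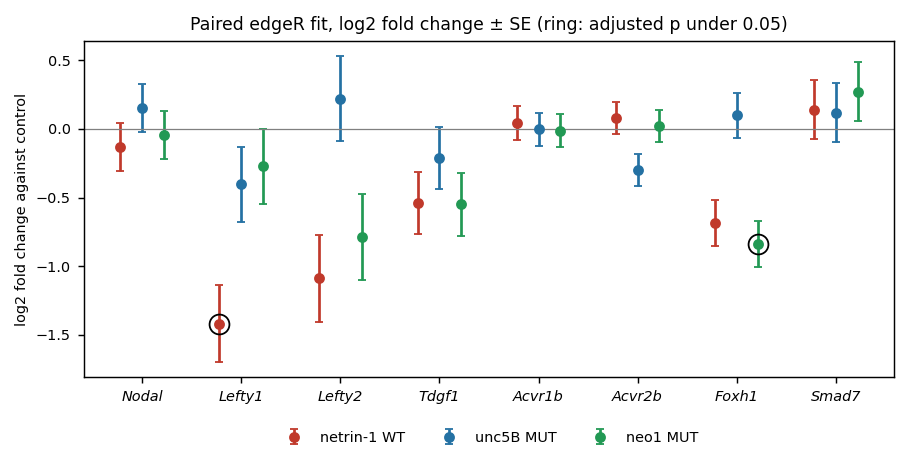
Log2 fold change of each gene against control (y axis) in the 3 netrin-1 groups, from the paired fit, with SE bars; rings mark an adjusted p under 0.05. Lefty1 in netrin-1 WT (-1.42) and Foxh1 in neo1 MUT (-0.84) carry rings, and the 3 comparisons share the control libraries.

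Unc5B MUT against control compares the Unc5b mutant with the empty vector. Of the 8 genes 0 were called in either edgeR fit (at an unadjusted p under 0.05, 1 in the paired fit and 0 in the unpaired fit; DESeq2 called 0 with and without the block), where 0.0285% of all genes were called with pairing and 0% without. The median log2 fold change was 0.049 over the 8 genes and 0.016 over all genes, and 2 of 8 genes had groups that did not overlap, Tdgf1 and Acvr2b, against 4.38% of all genes. Foxh1 was at 82.1, 69.4 and 76.7 CPM, overlapping the control values (log2 fold change 0.10, interval -0.27 to 0.47). Lefty1 was at 37.1, 49.7 and 8.47 CPM, below the control library of each number (log2 fold change -0.40, interval -1.003 to 0.19). Lefty2 was at 70.2, 70.5 and 11.5 CPM (0.22, interval -0.46 to 0.91). Nodal was at 60.3, 73.1 and 30.9 CPM (0.15, interval -0.23 to 0.54). Tdgf1 was at 448, 420.3 and 458 CPM, below all 3 control libraries by a small margin (-0.21, interval -0.72 to 0.29). Acvr1b and Smad7 were at 47.5, 51.7 and 47.9 CPM and at 46.9, 55.6 and 67.1 CPM, with log2 fold changes of -0.0021 and 0.12. Their groups overlap with control.

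The 1 gene under an unadjusted p of 0.05 was Acvr2b (ENSMUSG00000061393, chromosome 9, 119402118 to 119434995, plus strand), the type II receptor that binds the ligand. The antisense gene Gm47320 spans part of it and shares 0 exonic bases with it. It was at 28.8, 30.3 and 26.0 CPM in unc5B MUT and at 33.3, 38.3 and 33.2 CPM in control. It was at 39.5, 40.3 and 31.0 CPM in netrin-1 WT and at 36.9, 35.8 and 33.6 CPM in neo1 MUT, so the 3 unc5B MUT libraries were the lowest of the 12. The difference was small and did not pass against control (log2 fold change -0.30 ± 0.12, edgeR adjusted p = 0.983), against netrin-1 WT (-0.38 ± 0.12, adjusted p = 0.128) or against neo1 MUT, where the log2 fold change of neo1 MUT against unc5B MUT was 0.32 ± 0.12 (adjusted p = 0.142).

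Neo1 MUT against control compares the neogenin mutant with the empty vector. Of the 8 genes 1 was called, Foxh1, which fell; 5.26% of all genes were called. The unpaired edgeR fit called 0 of 8 (1 at an unadjusted p under 0.05; DESeq2 without the block called 1, Foxh1) and 0.128% of all genes. The median log2 fold change was -0.16 over the 8 genes and 0.015 over all genes, and 1 of 8 genes, Foxh1, had groups that did not overlap, against 11.4% of all genes. Foxh1 was at 41.5, 43.7 and 33.6 CPM against 77.3, 77.9 and 58.0 CPM in control. The 3 numbers gave like differences, of -0.89, -0.83 and -0.79 on the log2 scale. The log2 fold change was -0.84 ± 0.17 (SE; edgeR adjusted p = 0.0185; -0.87 and 0.00381 in numbers 1 and 2 alone; adjusted p = 0.177 without pairing), a level 1.79-fold lower. Leaving out control library 1 or 2, or neo1 MUT library 1 or 3, ended the call (edgeR adjusted p = 0.0991, 0.0988, 0.0725 and 0.0866). The authors' deposited table gives Foxh1 -0.84 here (adjusted p = 0.00767).

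The other 7 genes did not pass in neo1 MUT. Lefty2 was at 53.7, 39.3 and 2.99 CPM, below the control library of each number (log2 fold change -0.79 ± 0.31, edgeR adjusted p = 0.182). Lefty1 was at 36.6, 38.6 and 15.3 CPM, lower than control in numbers 1 and 2 and higher in number 3 (log2 fold change -0.27, interval -0.88 to 0.33). Tdgf1 was at 491, 179 and 454 CPM, where library 2 was the lowest of the 12 (-0.55 ± 0.23, edgeR adjusted p = 0.208). Nodal was at 52.9, 58.8 and 29.2 CPM (log2 fold change -0.045, interval -0.43 to 0.34). Smad7 (ENSMUSG00000025880, chromosome 18, 75367529 to 75395935, plus strand) was at 77.2, 45.8 and 67.8 CPM against 51.1, 57.5 and 45.3 CPM in control, higher in numbers 1 and 3 and lower in number 2 (0.27, interval -0.20 to 0.75).

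Setting the netrin-1 groups against each other asks whether a mutant differs from the wild type and from the other mutant. In unc5B MUT against netrin-1 WT 1 of 8 genes was called, Foxh1, which rose, where 1.97% of all genes were called; the unpaired edgeR fit called 0 of 8 (2 at an unadjusted p under 0.05; DESeq2 without the block called 1) and 0% of all genes. The log2 fold change of Foxh1 was 0.79 ± 0.17 (SE; edgeR adjusted p = 0.0415; 0.93 and 0.00319 in numbers 1 and 2 alone; 0.458 without pairing), and it was lost without netrin-1 WT library 1 or 2 or any 1 unc5B MUT library (adjusted p = 0.191, 0.212, 0.213, 0.135 and 0.155). Lefty1 and Lefty2 were higher in unc5B MUT in all 3 numbers and did not pass (log2 fold changes 1.02 ± 0.28 and 1.31 ± 0.32, edgeR adjusted p = 0.0963 and 0.0684). Groups did not overlap for 2 of 8 genes, Foxh1 and Acvr2b, against 9.42% of all genes. Nodal, Tdgf1, Acvr1b and Smad7 had log2 fold changes of 0.28, 0.33, -0.046 and -0.024 and did not pass.

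In neo1 MUT against netrin-1 WT 0 of 8 genes were called (1 at an unadjusted p under 0.05 in the paired edgeR fit, Lefty1, and 0 in the unpaired fit; DESeq2 called 1 with the block, Lefty1, and 0 without), where 1.99% of all genes were called with pairing and 0.076% without. Lefty1 was higher in neo1 MUT in all 3 numbers, with a log2 fold change of 1.15 ± 0.28 (edgeR adjusted p = 0.0735), which passed without netrin-1 WT library 1 (edgeR adjusted p = 0.0466). The fall of Lefty1 against control thus passed in netrin-1 WT and in neither mutant. In the paired edgeR fit with all libraries the direct tests of Lefty1 against the mutants did not pass. Of the 23 alternative settings, 3 called Lefty1 in unc5B MUT against netrin-1 WT and 3 in neo1 MUT against netrin-1 WT. Foxh1 differed by -0.15 (interval -0.52 to 0.22), and 0 of 8 genes had groups that did not overlap, against 8.28% of all genes. Nodal, Lefty2, Tdgf1, Acvr1b, Acvr2b and Smad7 had log2 fold changes of 0.084, 0.30, -0.0079, -0.056, -0.053 and 0.13. In neo1 MUT against unc5B MUT 1 of 8 genes was called, Foxh1, which fell, where 4.87% of all genes were called; the unpaired edgeR fit called 0 of 8 (1 at an unadjusted p under 0.05; DESeq2 without the block called 1) and 0.133% of all genes. Its log2 fold change was -0.94 ± 0.17 (SE; edgeR adjusted p = 0.0136; -0.83 and 0.00506 in numbers 1 and 2 alone; 0.162 without pairing), 1.92-fold lower in neo1 MUT. That call remained without neo1 MUT library 2 (adjusted p = 0.0385) and was lost without any 1 of the other 5 libraries (0.0504 to 0.0979). Groups did not overlap for 2 of 8 genes, Foxh1 and Acvr2b, against 11.8% of all genes. Lefty2 was lower in neo1 MUT in all 3 numbers and did not pass (log2 fold change -1.01 ± 0.32, edgeR adjusted p = 0.0960). Nodal, Lefty1, Tdgf1, Acvr1b and Smad7 had log2 fold changes of -0.20, 0.13, -0.34, -0.010 and 0.16 and did not pass.

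With only numbers 1 and 2 the paired fit called 2 of 8 genes in netrin-1 WT against control (Lefty1 and Foxh1; 16.3% of all genes), 0 in unc5B MUT against control (0.0754%), 1 in neo1 MUT against control (Foxh1; 10.5%), 3 in unc5B MUT against netrin-1 WT (Lefty1, Acvr2b and Foxh1; 13.4%), 0 in neo1 MUT against netrin-1 WT (2.95%) and 1 in neo1 MUT against unc5B MUT (Foxh1; 10%). Foxh1 had the same direction in each comparison that called it, with and without the number 3 libraries. These fits share the libraries of numbers 1 and 2, so the like direction is not separate evidence.

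Foxh1 and the receptor gene Acvr1b (ENSMUSG00000000532, chromosome 15, 101174067 to 101213684, plus strand) both lie on chromosome 15, where the median gene was lower than in control in netrin-1 WT and in neo1 MUT. Over the 400 genes of chromosome 15 above 10 CPM the median log2 fold change was -0.34 in netrin-1 WT, 0.035 in unc5B MUT and -0.44 in neo1 MUT, each against control. Apart from Foxh1, 10.8% of the 399 others fell in netrin-1 WT and 26.3% in neo1 MUT, against 2.2% and 4.13% of all genes above 10 CPM. Foxh1 lay 0.35 below the chromosome's median in netrin-1 WT and 0.40 below it in neo1 MUT (the differences were -0.35 and -0.40), where it ranked 33 and 36 of 400 from the lowest. The 41 other genes within 1 Mb of Foxh1 had medians of -0.40 in netrin-1 WT, 0.052 in unc5B MUT and -0.50 in neo1 MUT. Its 2 nearest neighbours, the kinesin gene Kifc2 and Ppp1r16a, had -0.16 and -0.17 in netrin-1 WT and -0.46 and -0.40 in neo1 MUT, and neither passed. All 8 genes within 50 kb had negative log2 fold changes in both groups. Of these, Vps28, which encodes an ESCRT-I subunit, fell in both groups (-0.68 and -0.66, edgeR adjusted p = 0.0264 and 0.0240) and Cyhr1 fell in neo1 MUT (-0.54, adjusted p = 0.0270). Mfsd3 had -0.79 and -1.03, lower than Foxh1 in both, and did not pass (edgeR adjusted p = 0.202 and 0.0833). Acvr1b, a type I receptor for Nodal and activin, was at 53.5, 52.6 and 41.6 CPM in control, at 48.0, 53.8 and 50.05 CPM in netrin-1 WT and at 51.7, 45.4 and 48.9 CPM in neo1 MUT. It lay 0.38 and 0.43 above the median of the chromosome in these comparisons. Between the netrin-1 groups the median of the chromosome was 0.36 in unc5B MUT against netrin-1 WT and -0.49 in neo1 MUT against unc5B MUT. Foxh1 lay 0.43 above the first and 0.45 below the second (differences of 0.43 and -0.45). Apart from Foxh1, 29.6% of the 399 others fell in neo1 MUT against unc5B MUT, against 3.93% of all genes above 10 CPM. Mfsd3, Vps28 and Cyhr1 were among those that fell (-1.23, -0.64 and -0.51, edgeR adjusted p = 0.0457, 0.0284 and 0.0368). The part of the chromosome in the Foxh1 differences was not tested.

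**Figure D3:**
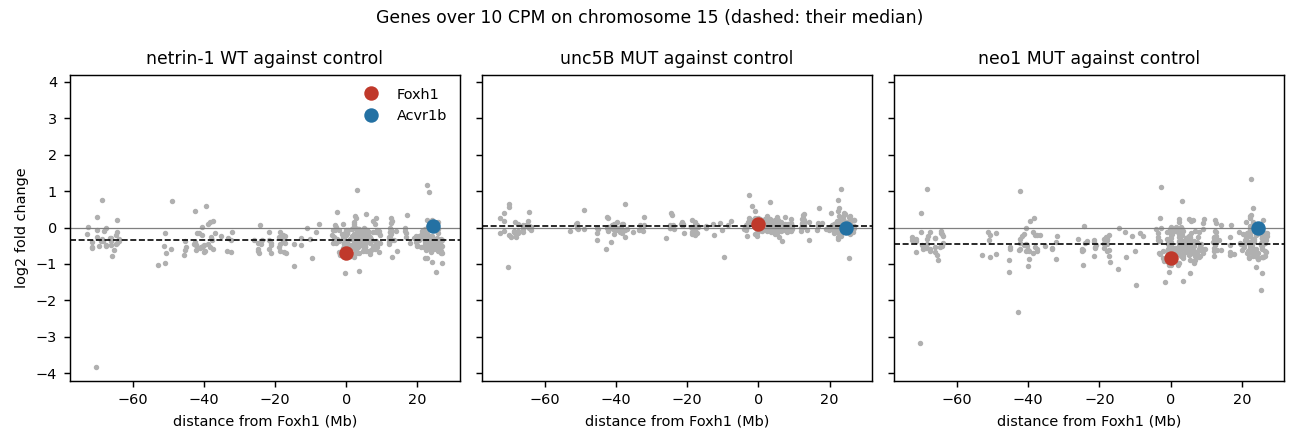
Log2 fold change against control (y axis, paired fit) of the 400 genes of chromosome 15 above 10 CPM, by distance of the gene's start from that of Foxh1 in Mb (x axis); the dashed line is their median. The median is -0.34 in netrin-1 WT, 0.035 in unc5B MUT and -0.44 in neo1 MUT, with Foxh1 (red) below it in netrin-1 WT and neo1 MUT and Acvr1b (blue) near 0 in all 3 panels.

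Markers of primitive endoderm, the extraembryonic lineage next to the epiblast, fell in the same 2 groups. Their 12 genes summed to 1791 to 4270 CPM in control, 489 to 1219 CPM in netrin-1 WT, 1203 to 3207 CPM in unc5B MUT and 502 to 886 CPM in neo1 MUT, and none was at 0 in any library. All 12 fell in netrin-1 WT and in neo1 MUT and 0 were called in unc5B MUT, against control. Of all genes 3.5%, 5.26% and 0.0285% were called there, in the same order. So 0 of 12 in unc5B MUT is near the share of all genes. The unpaired edgeR fit called 5, 4 and 0 of the 12 markers, against 0.0997%, 0.128% and 0% of all genes. Their median log2 fold change was -2.43 in netrin-1 WT and -2.39 in neo1 MUT. In unc5B MUT it was also below 0, at -0.57. Of the 8 embryonic stem cell markers 1 rose in netrin-1 WT, Sox2, from 322 ± 76.2 to 557 ± 218 CPM (log2 fold change 0.75 ± 0.14, edgeR adjusted p = 0.0144), and 0 were called in unc5B MUT or neo1 MUT. Their sum was 3618 to 4263 CPM in control, 4088 to 4288 CPM in netrin-1 WT, 3714 to 4246 CPM in unc5B MUT and 3460 to 4090 CPM in neo1 MUT. The 4 epiblast and primed-state markers did not move together. Dnmt3b, the DNA methyltransferase gene that makes up most of their sum, fell in neo1 MUT from 210 ± 57.2 to 137 ± 30.9 CPM (log2 fold change -0.61 ± 0.13, edgeR adjusted p = 0.0210). Otx2 was at 14.3 ± 6.70 CPM in control and 33.6 ± 3.29 CPM in neo1 MUT, and Pou3f1 at 5.99 ± 3.07 and 9.17 ± 5.27 CPM; neither passed (edgeR adjusted p = 0.0707 and 0.134). Fgf5 was too low to be tested. The 5 trophectoderm markers summed to 50.6 to 81.6 CPM in control, 30.1 to 85.7 CPM in netrin-1 WT, 38.8 to 64.2 CPM in unc5B MUT and 27.2 to 41.4 CPM in neo1 MUT. Among them the keratin gene Krt8, which lies on chromosome 15, fell in neo1 MUT from 49.1 ± 12.2 to 14.996 ± 9.23 CPM (-1.72 ± 0.39, edgeR adjusted p = 0.0322), Tfap2c rose in netrin-1 WT (0.96 ± 0.22, adjusted p = 0.0384), and the defining markers Cdx2 and Elf5 did not exceed 0.443 and 0.705 CPM. The 7 fibroblast markers summed to 7.81 to 18.04 CPM in control, 5.57 to 13.6 CPM in netrin-1 WT, 9.30 to 9.75 CPM in unc5B MUT and 4.38 to 7.61 CPM in neo1 MUT. Thy1 and Col1a1 reached 11.5 and 5.36 CPM, Thy1 fell in neo1 MUT (-1.30 ± 0.28, edgeR adjusted p = 0.0253), and Dcn was at 0 in 8 of 12 libraries. The part of these cells in the Lefty1 and Foxh1 differences was not tested.

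The other genes of the pathway were a list of 32, of which 28 passed the filter on low counts. Acvr1c, another type I receptor, the co-receptor Cfc1, the activin subunit gene Inhba and the Nodal antagonist Cer1 did not pass, and none exceeded 0.235 CPM. In netrin-1 WT against control 1 of 28 was called, Skil, which rose, and in unc5B MUT against netrin-1 WT 1 of 28 was called, Skil, which fell. In the other 4 comparisons the paired edgeR fit called 0 of 28. These were unc5B MUT and neo1 MUT against control, neo1 MUT against netrin-1 WT and neo1 MUT against unc5B MUT. Of all genes 0.0285%, 5.26%, 1.99% and 4.87% were called there. In the same order 1, 8, 8 and 12 of the 28 had an unadjusted p under 0.05. The share of all genes under that unadjusted p was not counted, here or for the 8 genes, so those counts have no background. The unpaired edgeR fit called 0 of 28 in all 6 comparisons (0 to 3 at an unadjusted p under 0.05); other tools were not run on this list. Over all genes 3.5% were called in netrin-1 WT against control and 1.97% in unc5B MUT against netrin-1 WT, so 1 of 28 is near the share of all genes. The median log2 fold change of the 28 lay between -0.13 and 0.091 over the 6 comparisons.

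Skil encodes SnoN, a co-repressor of the Smads that the pathway itself induces. It was at 119, 156 and 42.7 CPM in control and at 281, 298 and 47.8 CPM in netrin-1 WT (log2 fold change 0.81 ± 0.18, edgeR adjusted p = 0.0382; unpaired adjusted p = 1). It was at 109, 169 and 35.1 CPM in unc5B MUT, below netrin-1 WT (-0.90 ± 0.18, edgeR adjusted p = 0.0355). The groups overlap, since the number 3 libraries are low in each. Skil lies on chromosome 3, with 6 other genes above 10 CPM within 1 Mb of it. Their median log2 fold change was 0.96 in netrin-1 WT against control, with 5 of 6 rising, where 367 of all 21053 tested genes rose. In unc5B MUT against netrin-1 WT it was -0.75, with 4 of 6 falling, where 203 of the 21053 fell. The part of that region in the Skil differences was not tested. Smad3, one of the signal transducers, had log2 fold changes of 0.53 ± 0.16 in netrin-1 WT and -0.17 ± 0.16 in neo1 MUT against control (edgeR adjusted p = 0.101 and 0.61).

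The ligand and its secreted inhibitors differed more between replicate numbers than between groups. Of the 8 genes 3 differed between number 3 and numbers 1 and 2, a smaller share than the 62.8% of all genes, and all 3 were lower in number 3. Lefty2 was 9.97-fold lower in number 3 (log2 fold change -3.32 ± 0.28, edgeR adjusted p = 2.17e-06), a decrease that 1.12% of the tested genes exceeded. Lefty1 was 3.79-fold lower (-1.92 ± 0.23, adjusted p = 2.95e-05; exceeded by 5.84% of genes) and Nodal 1.99-fold lower (-0.99 ± 0.14, adjusted p = 9.76e-05; exceeded by 18.3%). For these 3 genes, and for Acvr2b, the number 3 library was the lowest of its group in all 4 groups, control included. Tdgf1, Acvr1b, Acvr2b, Foxh1 and Smad7 had log2 fold changes between -0.19 and 0.30 and did not pass. Between numbers 2 and 1 the edgeR test called 0 of 8.

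Of the 28 other tested genes of the pathway 10 were lower and 6 higher in number 3, which is near the share of 62.8% of all genes. Their median log2 fold change was -0.29 beside -0.045 over all genes. The mesendoderm genes Mixl1 (-2.23 ± 0.51) and Eomes (-1.60 ± 0.15), Skil (-1.99 ± 0.15) and the ligand gene Gdf3 (-0.999 ± 0.16) were each lowest in number 3 in all 4 groups (edgeR adjusted p = 0.00291, 3.57e-06, 9.08e-07 and 0.000302). Of the genes listed in 1 role with Mixl1 and Eomes, Gsc, T and Fgf8 did not pass. Their log2 fold changes were 0.73 ± 0.57, -0.89 ± 0.39 and -0.71 ± 0.42 (edgeR adjusted p = 0.285, 0.067 and 0.158). Mixl1 did not exceed 0.526 CPM. In the other direction the Smad phosphatase gene Ppm1a (1.21 ± 0.072), the co-repressor genes Drap1 (0.94 ± 0.085) and Tgif1 (0.51 ± 0.094), the protease gene Furin (0.81 ± 0.18), which processes the ligand, and the inhibitor gene Pmepa1 (0.79 ± 0.21) were higher. The number 3 libraries held 22256195 to 24736421 estimated counts, fewer than each of the other 8 (32370919 or more). The meaning of a number is not in the labels, and the part of depth in these differences was not tested.

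**Figure D4:**
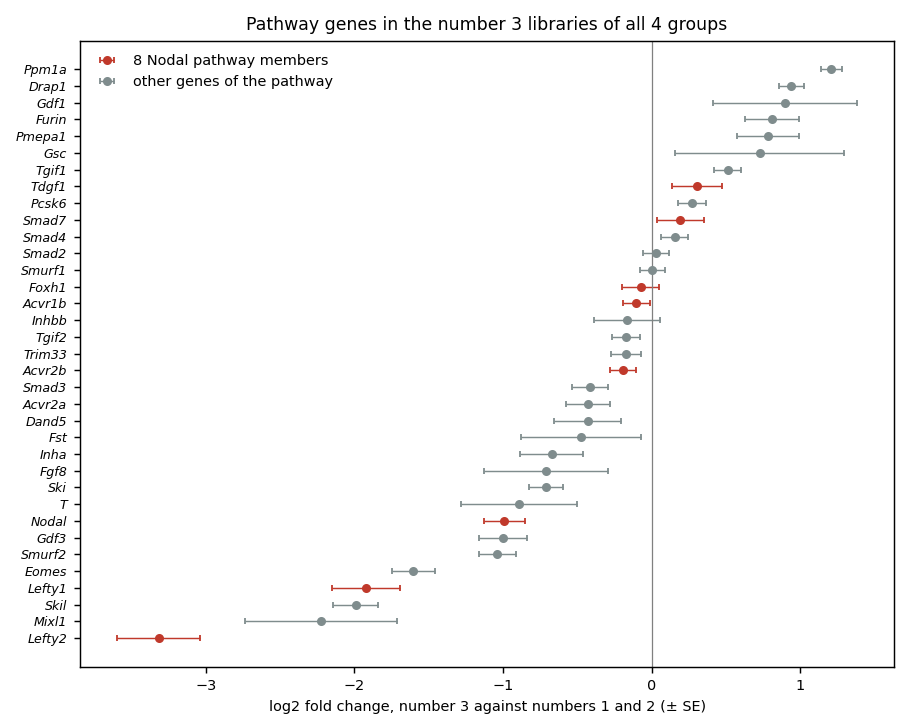
Log2 fold change of the number 3 libraries against those of numbers 1 and 2 over all 4 groups (x axis, paired fit, SE bars) for the 8 genes (red) and the tested other genes of the pathway (grey; 1 is not shown). Lefty2 is the lowest at -3.32, followed by Mixl1, Skil and Lefty1, while Foxh1, Acvr1b and Smad7 lie near 0.

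The genes whose levels followed 3 of the 8 most closely were found by Pearson's r of log2 CPM over the 12 libraries, after the mean of each replicate number was subtracted, among 10141 genes of at least 5 CPM. The values share libraries and depth and are a description. For Nodal they were Ier5l (r = 0.93), Mrm2 (0.92) and Nefh (0.91), and for Lefty1 they were Rhob (0.94), Gusb (0.94) and Slc7a7 (0.93). For Tdgf1 they were Harbi1 (0.90), Smim26 (0.90) and Fem1b (0.89).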

How the data were processed

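The authors deposited estimated counts for 52661 Ensembl genes in 12 libraries, which need not be whole numbers, together with a log2 table of normalized values, not used in any test, and a table of comparisons that holds, per the file headers, log2 fold changes, a signed fold change (a score, not used), p-values and adjusted p-values for 20347 genes. The submitters' processing notes list DESeq2, R 3.3.2, STAR 2.5.2b, FastQC 0.11.5, Bowtie and Bowtie2 as tools and GRCm38.p5, mm10 and GRCh38 as builds, without roles; the counting program and its use of strand are not stated there. Groups and replicate numbers are from the sample titles. The design had assumed whole counts, so the estimated counts were rounded and tested with edgeR 4.0.16 (R 4.3.3, limma 3.58.1): TMM, filterByExpr (21053 genes), all 12 libraries in 1 fit, quasi-likelihood F-test, Benjamini-Hochberg adjustment over all tested genes, threshold 0.05. The SE is the log2 fold change divided by the square root of F. Same-numbered libraries of different groups had deviations from their group means that correlated at 0.58 to 0.88. This is above the minimum of 0.1 set for pairing, so a fit with that number as a block is given too. Numbers 1 and 2 also correlated with each other (0.492 to 0.758), so passing that minimum does not show that numbers 1 and 2 pair libraries. Differences within a number are of log2 CPM with a prior count of 2. Gene names, coordinates and exon lengths are from GENCODE M21 (GRCm38; 52566 IDs matched). An exact permutation test of 3 against 3 libraries cannot go below 0.1, so none is given. Alternatives were no filter beyond 1 count, RLE size factors, DESeq2 1.42.0, only the 2 groups compared, numbers 1 and 2 only, and leaving out each library. All 8 genes are described in every comparison. Other pathway genes are named where they passed a fit or had the highest level of their role. Those named beside them were chosen after their values were seen, as was the contrast of number 3. They are Smad3, Mixl1, Eomes, Gsc, T, Fgf8, Gdf3, Ppm1a, Drap1, Tgif1, Furin and Pmepa1, the neighbours Kifc2, Ppp1r16a, Mfsd3, Vps28 and Cyhr1, and single markers. The members and lists were chosen with earlier results of these data known. 1 gene of the pathway list is counted but not reported here. The fits were tested on simulated data.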

Additional observations from a re-analysis of the deposited data

How the results depend on the processing

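Without the replicate block the edgeR fit called 0 of the 8 genes in each of the 6 comparisons. The replicate block raised this to 1 in netrin-1 WT against control (Lefty1) and to 1 (Foxh1) in neo1 MUT against control, unc5B MUT against netrin-1 WT and neo1 MUT against unc5B MUT; it changed no other count. DESeq2 without the block called 1 (Foxh1) in these last 3 comparisons, and 415, 167 and 347 over all genes. For netrin-1 WT against control the block called 2 with RLE size factors, 3 with no filter beyond 1 count, 3 in DESeq2 and 2 in numbers 1 and 2 only. For neo1 MUT against control it called 1 in each of these settings and with only the 2 groups compared. For unc5B MUT against netrin-1 WT it called 1, 3, 4 and 3, for neo1 MUT against netrin-1 WT 1 with no filter and 1 in DESeq2, and for neo1 MUT against unc5B MUT 1, 2, 3 and 1, and 1 with only the 2 groups. Over all genes these settings called 741, 942, 1729 and 3450 in netrin-1 WT against control. In neo1 MUT against control they called 1112, 1314, 2133 and 2233, and 267 with only the 2 groups. The counts were 414, 669, 1482 and 2845 in unc5B MUT against netrin-1 WT, and 586 and 1135 in neo1 MUT against netrin-1 WT. In neo1 MUT against unc5B MUT they were 1019, 1349, 2177 and 2132, and 2062 with only the 2 groups. Numbers 1 and 2 without the block gave 2, 1, 1 and 1 in the 4 comparisons that the block called. Over all genes they gave 895, 586, 431 and 493. Leaving out 1 library gave 0 to 2 genes in netrin-1 WT against control and in unc5B MUT against netrin-1 WT, 0 to 1 in neo1 MUT against control, against netrin-1 WT and against unc5B MUT, and 0 in unc5B MUT against control. For these counts the cause was not tested. Over all genes the unpaired and paired fits called 21 and 737, 0 and 6, 27 and 1108, 0 and 414, 16 and 419, and 28 and 1026 in the order of the 6 comparisons of the report, and the alternatives ranged from 0 to 3450, 0 to 113, 2 to 2233, 0 to 2845, 1 to 1135 and 2 to 2177. Lefty1 was lower in netrin-1 WT than in control in all 23 alternatives and was called in 9. Foxh1 was lower in neo1 MUT than in control in all 23 and was called in 10. The contrast of number 3, the paired fit of only the 2 groups and numbers 1 and 2 without the block were chosen after seeing the data. Lefty2 held as few as 57.1 estimated counts in a number 3 library, which limits its within-number differences there.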
